A study of Mus musculus with 22 samples.

Results

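Cluster 12 was one of the clusters that the authors had deposited for whole cells of the mouse hypothalamus, and its members were taken from that annotation by the cluster number alone. It held 1175 of the 54890 cells. The study asked how a single injection of fibroblast growth factor 1 (FGF1) into the cerebral ventricles, a treatment given for diabetes remission in obese mice, changes the cells of the hypothalamus. All mice were Lep ob/ob males of 11 weeks, which lack leptin and are obese and diabetic, and each library came from 1 mouse. The whole-cell libraries were made on Day 5 after 3 µg of recombinant human FGF1 (6 mice) or after the saline vehicle in pair-fed mice (6 mice), so both arms shared the genotype and the injection, and the vehicle mice were in addition given no more food than the FGF1 mice ate. Nuclei of other mice of the same genotype were counted on Day 1 (3 FGF1 and 3 vehicle mice) and on Day 5 (2 FGF1 and 2 vehicle mice). Neurons and doublets had been removed from the whole cells before deposit. Mice are named here by the numbers of their labels.

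Oligodendrocytes are the glia that wrap axons in myelin and feed the axons they wrap. After they mature, their subtypes differ less in myelin genes than in metabolic and secreted products, and one mature subtype is known for Ptgds, which encodes lipocalin-type prostaglandin D synthase, an enzyme that makes prostaglandin D and is also an abundant carrier protein of the cerebrospinal fluid. The other markers given for cluster 12 were Car2 (carbonic anhydrase 2, which interconverts carbon dioxide and bicarbonate), Qdpr (dihydropteridine reductase, which regenerates tetrahydrobiopterin) and Aspa (aspartoacylase, which splits N-acetylaspartate into acetate and aspartate). Ptgds lies at chr2:25466709-25470046 on the minus strand of GRCm38, Car2 at chr3:14886273-14900770, Qdpr at chr5:45434021-45450236 and Aspa at chr11:73304992-73329596.

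The cells of cluster 12 carried the oligodendrocyte genes and differed from their neighbours, clusters 2 and 11, above all by Ptgds. Mbp, a structural protein of compact myelin, had a UMI (a counted transcript molecule) in 100% of the cells, Cnp in 98.0%, Cldn11 in 97.4% and Mog in 75.9%. The same genes had a UMI in 78.5%, 20.7%, 6.63% and 3.10% of the microglia-type cells of cluster 8, so that detection of Mbp alone marks no cell type here. Car2 was seen in 91.1% of the cells, Qdpr in 86.0% and Aspa in 49.4%, against 7.91%, 13.3% and 1.18% of the cells of cluster 8, whose shares serve as a background for free RNA and other stray transcripts. The median depth was 1568 UMIs per cell in cluster 12 and 1263.5 in cluster 8. A coarser clustering in the same annotation put 1173 of the 1175 cells into a single cluster of 10243 cells, together with cluster 2 (7409 cells) and cluster 11 (1378 cells). The label of oligodendrocytes thus held for its markers, and cluster 12 was a division within them.

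The cells came unevenly from the mice. FGF1 mice gave 223 of the cells and vehicle mice 952, so that 81.0% were from vehicle mice. Among the FGF1 mice the counts were 36 cells in mouse 6, 26 in mouse 7, 19 in mouse 10, 3 in mouse 21, 9 in mouse 28 and 130 in mouse 36. Among the vehicle mice they were 436 in mouse 20, 225 in mouse 22, 105 in mouse 25, 30 in mouse 27, 63 in mouse 29 and 93 in mouse 35. Mouse 20 alone held 37.1% of the cluster, and mouse 36 held 58.3% of its FGF1 cells. Of the 1175 cells, 78 had a barcode that also occurred in another library, and 2 barcodes were shared by cells of cluster 12 from different mice. Only 7 cells of the cluster exceeded 20% mitochondrial or ribosomal UMIs.

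Ptgds made up 4.96% of all UMIs in cluster 12 and 1.06% in clusters 2 and 11. Per 10000 UMIs of a cell, its level had a median of 461 in cluster 12 (lowest 223, highest 1626), of 104 in cluster 2 (highest 429) and of 46.0 in cluster 11 (highest 288). The ranges met. Between 250 and 350 per 10000 lay 158 cells of cluster 12 and 762 cells of clusters 2 and 11. Of 1473 oligodendrocytes above 300, 1136 were in cluster 12, 337 in cluster 2 and 0 in cluster 11, and 96.7% of cluster 12 was above that level. From 400 upwards, 804 of 808 cells were in cluster 12. Cluster 12 was therefore the upper end of a continuous range of Ptgds rather than a group set apart by a gap, and since the clusters were built from the same counts, this is a description and no test.

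**Figure D1:**
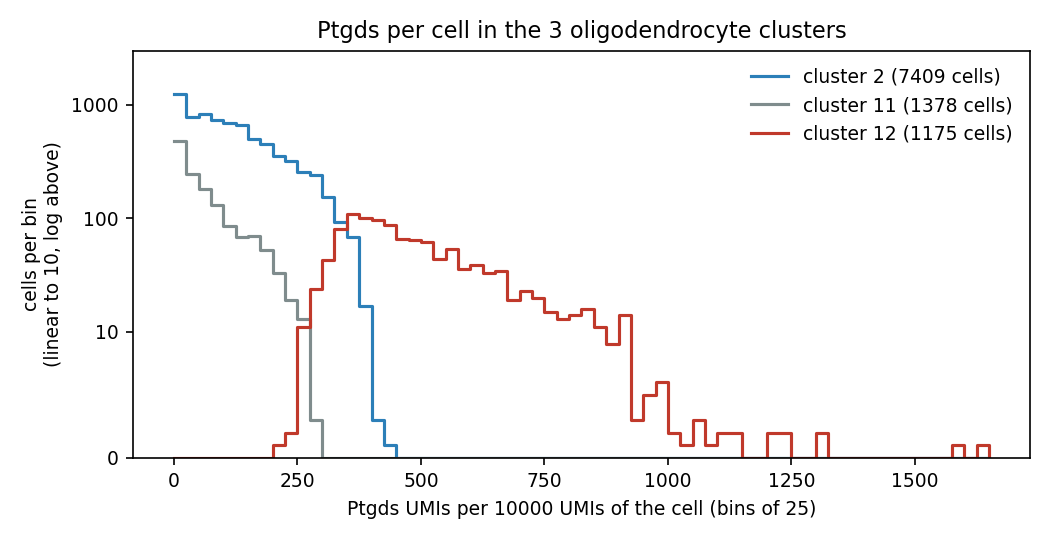
Ptgds UMIs per 10000 UMIs of a cell (x axis) against the number of cells (y axis) in clusters 2, 11 and 12. The medians are 104, 46.0 and 461, and cluster 12 takes over from cluster 2 between 250 and 350 with no empty stretch between them.

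Cells outside the oligodendrocytes had far less Ptgds in most clusters. A Ptgds UMI was seen in 27.8% of the cells of cluster 8 and in 26.9% of those of cluster 1, with a median level of 0 in both. Clusters 13, 18 and 20 were exceptions. Clusters 13 and 20 had 95th percentiles of 967 and 1421 per 10000, with medians of 8.63 and 28.5. In cluster 18 a Ptgds UMI was seen in 91.7% of 108 cells, with a median of 42.8 and a highest value of 198. This share and median were close to those of cluster 11 (88.6% and 46.0), and whether cluster 18 holds oligodendrocytes was not examined. High Ptgds was thus not limited to cluster 12, and the cells of clusters 13, 18 and 20 were counted separately in the authors' clustering.

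Summed per mouse, Ptgds stood at 46860 ± 5499 UMIs per 1000000 (CPM, SD, n = 10 mice with at least 10 cells of cluster 12), against 11353 ± 2165 in cluster 2 and 7704 ± 1729 in cluster 11 of the same mice. The mean log2 ratio of cluster 12 over clusters 2 and 11 together was 2.12 ± 0.19 (SD, n = 10), a 4.35-fold difference that was present in 10 of 10 mice and lowest at 1.81. The other 3 markers were also higher in 10 of 10 mice but by far less. Car2 was at 2549 ± 586 CPM in cluster 12, 1534 ± 235 in cluster 2 and 1629 ± 761 in cluster 11. Qdpr was at 1706 ± 435, 1167 ± 322 and 1052 ± 337 CPM in these clusters, and Aspa at 488 ± 84.3, 323 ± 50.5 and 347 ± 93.6. Their mean log2 ratios over clusters 2 and 11 together were 0.60 for Car2, 0.51 for Qdpr and 0.53 for Aspa.

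Few other genes separated the cells by as much. Of 2917 genes with at least 50 CPM in cluster 12 or in clusters 2 and 11, 6 had a mean log2 ratio above 1 and 7 below -1, and the median was 0.03. After each cell was thinned to 700 UMIs, the 6 stayed above 1, and 0 of the 7 stayed below -1. The prior of 1 count weighs more in the small thinned sums of cluster 12 than in those of clusters 2 and 11. It raises the ratios of genes with few UMIs, so the thinned ratios are no even check of high and low genes. Next to Ptgds came Bfsp2, a lens intermediate filament gene known from mature oligodendrocytes (1.44 ± 0.88 on the log2 scale, SD, n = 10), and Gstp1, a glutathione transferase (1.29 ± 0.24). Gstp1 has near-identical copies in the genome, so its counts are uncertain. Then followed Wfdc18, a secreted inhibitor-like protein (1.14 ± 0.73), Cd9, a tetraspanin of the oligodendrocyte membrane (1.13 ± 0.35), and Cdkn1a, the cell cycle inhibitor p21 (1.10 ± 0.89). These genes did not stand out to the same extent against both neighbours. Bfsp2 was at 67.7 CPM in cluster 12, 19.8 in cluster 2 and 54.5 in cluster 11, so it was set apart from cluster 2 only, whereas Gstp1 was at 358, 134 and 157 CPM and was higher than in either neighbour in 10 of 10 mice. Cd9 was at 845, 376 and 497 CPM. The remaining 6 of the 12 highest genes were Itgad, Fdps, a step of isoprenoid and cholesterol synthesis, Mrpl46, Hebp1, Psmc2 and Synj2bp, with log2 ratios from 0.97 down to 0.84. The genes for Itgad, Fdps, Mrpl46, Hebp1 and Synj2bp overlap another annotated gene on the same strand. Bfsp2, Cdkn1a, Mrpl46 and Synj2bp passed the floor of 50 CPM through cluster 12 alone. Their place among the highest genes is thus favoured by the filter and no support for the cluster.

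The genes with the lowest ratios stood far below their level in cluster 2. Hes1, a Notch target that marks progenitors and astroglia, was at 17.8 CPM in cluster 12, 123 in cluster 2 and 27.7 in cluster 11. Gja1, the astrocyte gap junction protein connexin 43, was at 103, 287 and 88.4 CPM, and Slc1a3, the astrocyte glutamate transporter GLAST, at 355, 800 and 279. Nnat, neuronatin, was at 385, 1147 and 335 CPM, and S100a6, a calcium-binding protein, at 170, 524 and 168. Their mean log2 ratios over clusters 2 and 11 together moved with thinning, with -1.62 for Hes1 and -1.14 for Gja1 against -0.74 and -0.64 at 700 UMIs a cell. The 8 lowest genes also included 6330403K07Rik, Thrsp and Zfp36l1. Hes1, Thrsp and Zfp36l1 passed the level floor through clusters 2 and 11 alone. Since such genes mark other cells, the whole list of 7 astrocyte markers was summed per mouse. It reached 511 to 2696 CPM in cluster 12, 2567 to 4542 in cluster 2 and 841 to 2121 in cluster 11. The part of astrocyte RNA in these differences was not tested.

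The gene lists did not all place cluster 12 highest. All 8 oligodendrocyte markers were over the level floor, with a median log2 ratio of 0.28 over cluster 2 and of -0.62 over cluster 11. Cluster 12 thus did not have the highest level of most of these genes. Of 13 genes of metabolic support, such as lactate transport, acetate release and pterin recycling, 7 were over the floor, of which 4 were higher in all 10 mice (57.1%) against 4.87% of all genes over the floor. Car2, Qdpr and Aspa, the markers given for the cluster, are 3 of these 4, so the share of this list is no separate result. Of the 16 genes listed for mature oligodendrocytes of types 5 and 6, 4 were higher in all 10 mice (25%) and 1 was lower in all (6.25%, against 2.64% of all genes). The median log2 ratio of this list was 0.19. Ptgds, Car2 and Qdpr, markers of the cluster, are 3 of the 4, so this share is no separate result either. Cryab, a small heat shock protein of mature oligodendrocytes, was the fourth, at 2817 CPM against 1826 in cluster 2 and 2479 in cluster 11. Il33, an alarmin stored in the nuclei of these cells, was at 536, 326 and 306 CPM and was higher in 9 of 10 mice. Of 22 genes of cholesterol synthesis, 11 were over the floor, with a median log2 ratio of 0.36 over cluster 2 and of -0.46 over cluster 11. Among the 11 mitochondrial transcripts, 6 were lower in all 10 mice than in clusters 2 and 11 together (54.5%, against 2.64% of all genes over the floor). Their median log2 ratio was -0.16, with -0.20 over cluster 2 and 0.12 over cluster 11, so they were not lower than in both neighbours.

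**Figure D2:**
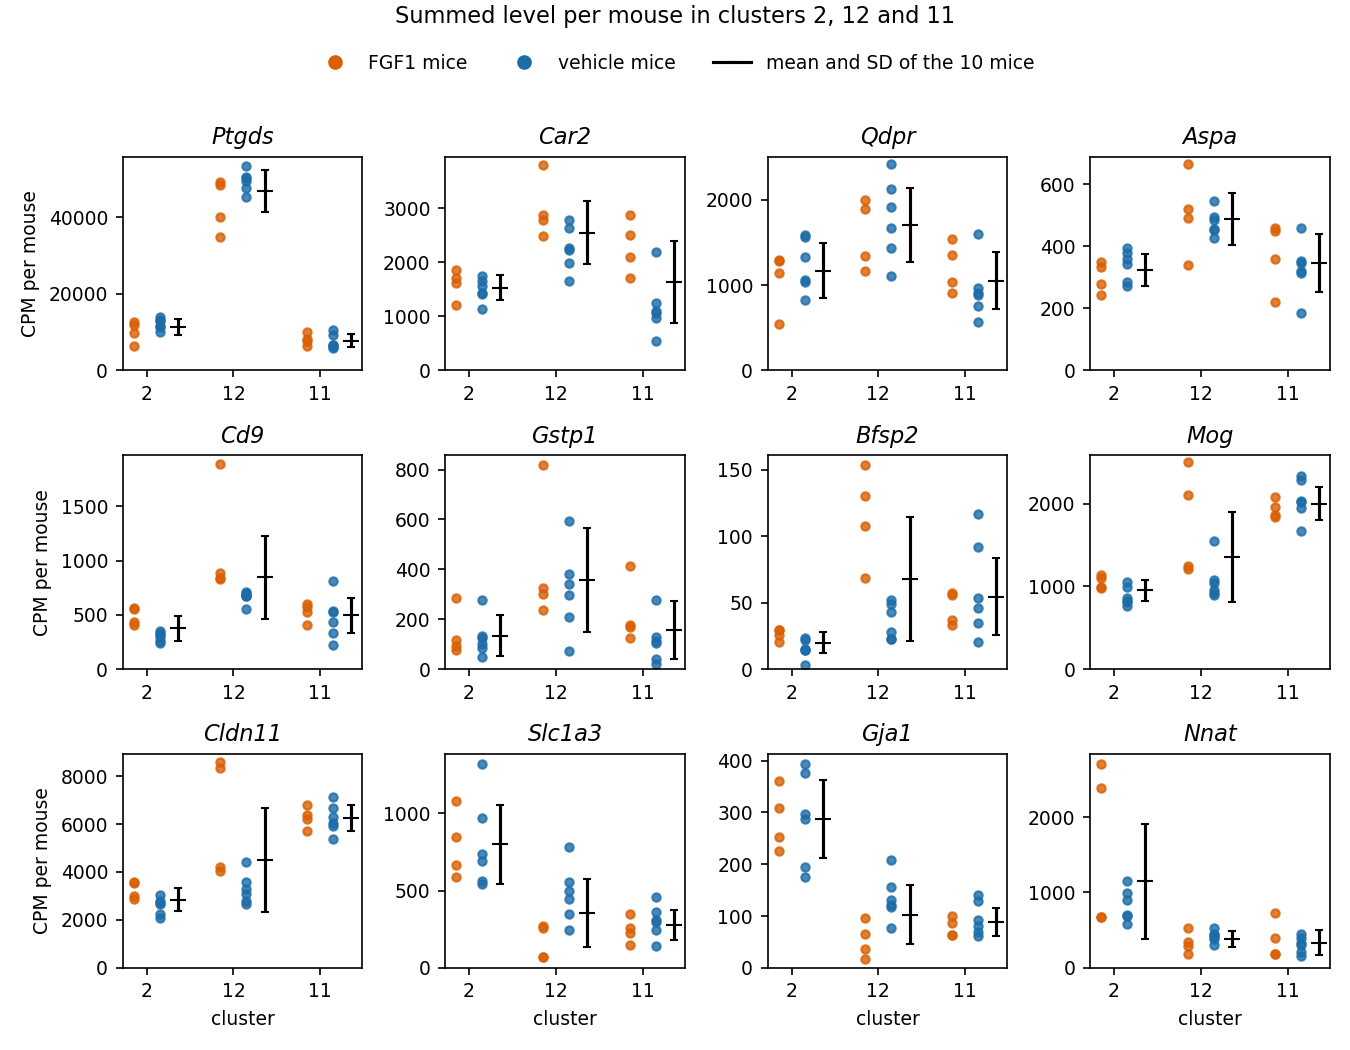
Level per mouse (y axis, CPM) of the markers and of other named genes in clusters 2, 12 and 11 (x axis), with 1 point for each of 10 mice and the mean and SD beside them. Ptgds in cluster 12 lies above the other clusters in every mouse, with a mean of 46860 CPM, while Slc1a3 and Gja1 lie high in cluster 2 alone.

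Many of the smaller differences ran along the Ptgds level across clusters, while others were largest in the class that holds cluster 12. The 9962 cells of the 3 clusters were placed in 5 classes of Ptgds per 10000 UMIs, and CPM were taken with Ptgds left out of the totals. Of the classes, those under 200 held 0 cells of cluster 12 and that from 200 to 300 held 38 of 1274. Qdpr averaged 966 ± 194 CPM in the cells under 50 (SD, n = 12 mice), 1192 ± 280 from 50 to 100, 1404 ± 339 from 100 to 200, 1637 ± 409 from 200 to 300 and 1802 ± 433 at 300 and over (n = 11). Cd9 went from 284 ± 118 through 395, 478 and 730 to 872 ± 425 CPM in the same classes. Car2 went from 1638 ± 371 to 2544 ± 548, Aspa from 315 ± 47.2 to 506 ± 98.7 and Gstp1 from 108 ± 75.2 to 347 ± 231. Wfdc18 differed less below 300, with 54.9, 57.1, 67.3 and 72.7 CPM, and stood at 109 ± 38.1 in the highest class. Psmc2 was at 71.8, 63.0, 69.6 and 86.7 CPM and then at 112 ± 30.7, and Mrpl46 at 30.1, 31.2, 30.2 and 42.2 and then at 56.1 ± 29.3. Mbp did not follow, with 6966 CPM in the lowest class and 6833 in the highest. Slc1a3 went the other way, from 768 ± 254 to 374 ± 212 CPM, Gja1 from 294 to 106, and the sum of the 7 astrocyte markers from 3342 ± 907 to 1823 ± 810. The classes share their mice and were made from Ptgds, and the median depth was between 1319 and 1441 UMIs in each, so the order is a description within these cells.

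**Figure D3:**
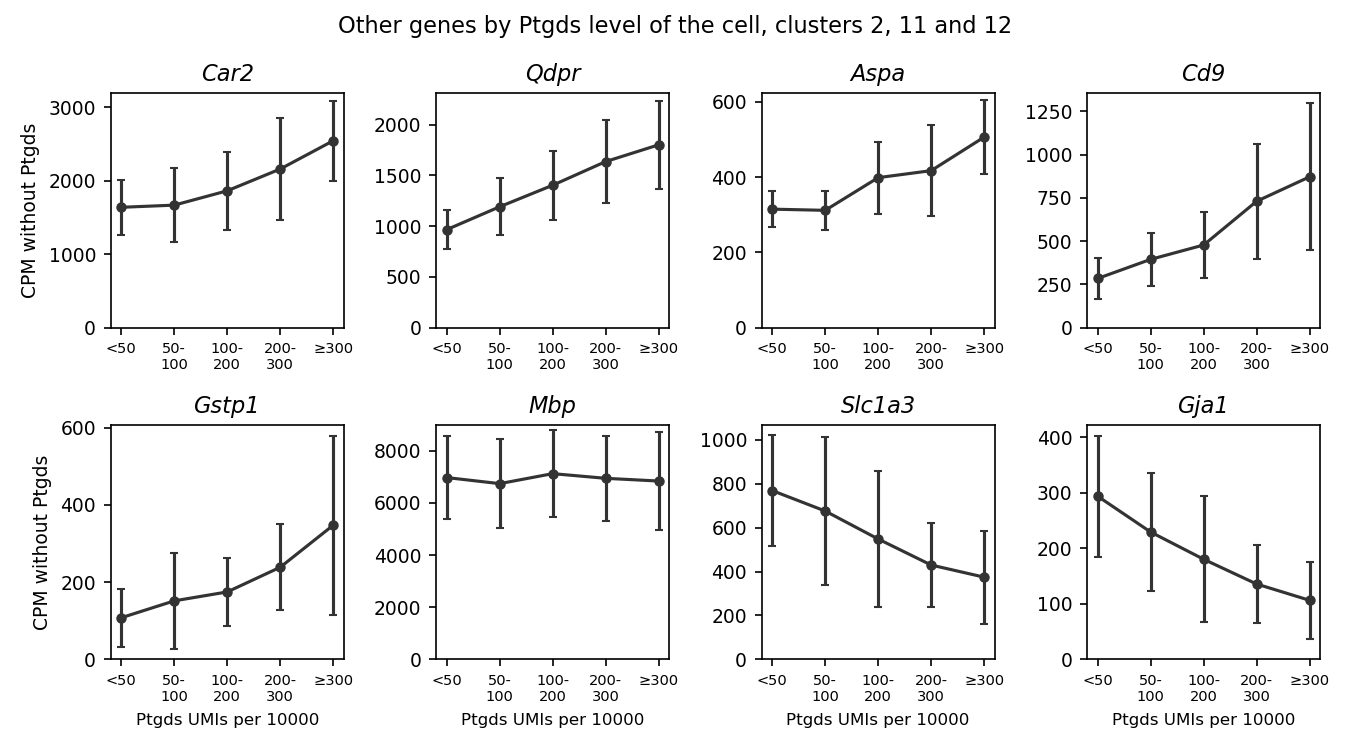
Mean level over mice (y axis, CPM with Ptgds left out of the totals, with SD as error bars) of named genes in 5 classes of cells by Ptgds per 10000 UMIs (x axis). Qdpr, Cd9 and Car2 are higher from class to class, Mbp lies at 6966 CPM in the lowest and 6833 in the highest class, and Slc1a3 and Gja1 go from 768 to 374 and from 294 to 106 CPM.

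After FGF1, cluster 12 made up less of the oligodendrocytes in most mice. Its share of the cells of clusters 2, 11 and 12 was 9.45% in FGF1 mouse 6, 6.99% in mouse 7, 3.17% in mouse 10, 0.952% in mouse 21, 1.47% in mouse 28 and 13.6% in mouse 36, with a mean of 5.94% ± 4.99 (SD, n = 6). In the vehicle mice it was 21.0% in mouse 20, 15.3% in mouse 22, 6.67% in mouse 25, 10.9% in mouse 27, 8.57% in mouse 29 and 15.6% in mouse 35, with a mean of 13.0% ± 5.29 (SD, n = 6). The arms overlapped, since mice 6, 7 and 36 reached the vehicle range. The annotation gave 6 batches of 1 FGF1 and 1 vehicle mouse each, and the share was lower in the FGF1 mouse in 5 of them, by 1.58 to 20.1 percentage points. In batch 6 (FGF1 mouse 36, vehicle mouse 25) it was higher by 6.93 points. No test is given for this share, because genes that divide the clusters, such as Cd9, themselves differed between the arms in cluster 2 (0.904% of its genes called, edgeR). Cluster 11 held 88.0% FGF1 cells and cluster 2 held 75.7% vehicle cells, so the division of oligodendrocytes among all 3 clusters moved with the treatment.

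Ptgds over all oligodendrocytes of a mouse does not depend on the boundary, although in such sums fewer high-Ptgds cells and less Ptgds RNA per cell cannot be told apart. In clusters 2, 11 and 12 together it was 14293 CPM in FGF1 mouse 6, 11672 in mouse 7, 7339 in mouse 10, 6266 in mouse 21, 6942 in mouse 28 and 17920 in mouse 36. The vehicle values were 21807 CPM in mouse 20, 19341 in mouse 22, 12969 in mouse 25, 15256 in mouse 27, 14880 in mouse 29 and 19942 in mouse 35. The arms overlapped through FGF1 mice 6 and 36. The fitted log2 fold change was -0.70 (SE 0.26), with an unadjusted p of 0.018 and an adjusted p of 0.163 by edgeR's quasi-likelihood test with Benjamini-Hochberg adjustment, which did not pass 0.05. Without each of the 12 mice in turn it ran from -0.90 to -0.59, with an adjusted p from 0.040 to 0.310, and it passed only without FGF1 mouse 36. Ptgds was lower in the FGF1 mouse in 5 of 6 batches, and again higher in batch 6. The share of oligodendrocytes above 300 per 10000 was 7.07% ± 6.19 after FGF1 and 16.3% ± 6.25 after vehicle (SD, n = 6 each), and 7.19% and 16.3% after each cell was thinned to 700 UMIs.

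**Figure D4:**
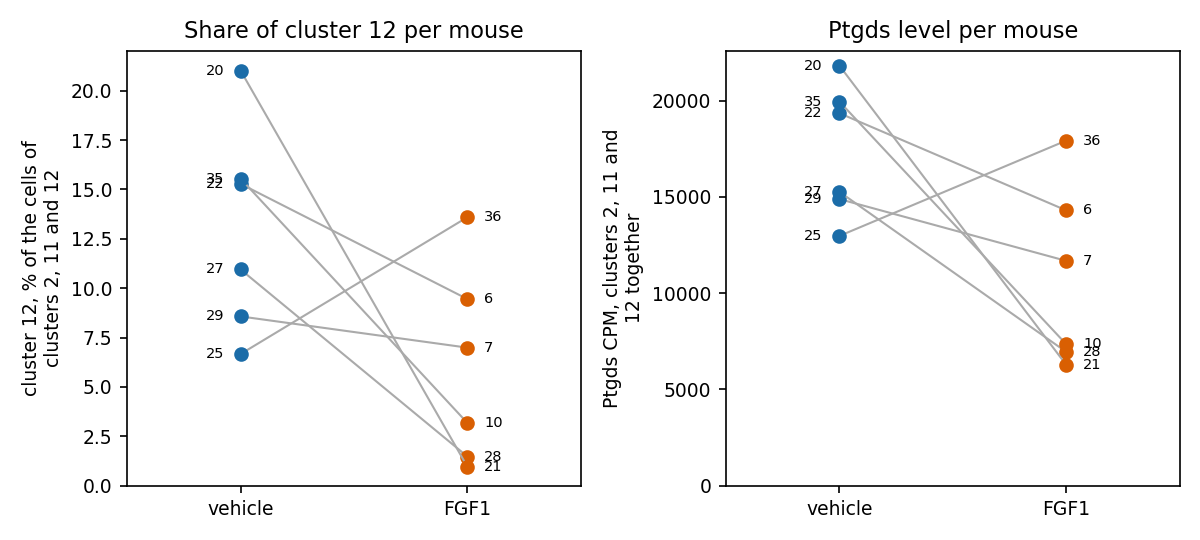
Share of cluster 12 among the oligodendrocytes of each mouse (percent) and Ptgds over all oligodendrocytes of each mouse (CPM) by treatment, with mouse numbers beside the points and grey lines joining the mice of a batch. The vehicle means are 13.0% and 17366 CPM and the FGF1 means 5.94% and 10739 CPM, and FGF1 mouse 36 lies within the vehicle range in both.

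Within cluster 12 Ptgds did not pass the test between the arms. It was 48355 CPM in FGF1 mouse 6, 40126 in mouse 7, 34898 in mouse 10 and 49136 in mouse 36, and from 45177 to 53429 with a median of 49714 in the 6 vehicle mice. The arms overlapped. The log2 fold change was -0.22 (SE 0.16, adjusted p = 0.627, edgeR), and Ptgds was lower in the FGF1 mouse of 6 of 6 batches when the 2 mice with 3 and 9 cells were included. In cluster 2 the log2 fold change was -0.46 (adjusted p = 0.247, edgeR) and in cluster 11 -0.12 (adjusted p = 0.759). Since 1173 of the 1175 cells of cluster 12 share a coarser cluster with clusters 2 and 11 and its division from them follows Ptgds closely, a change within it cannot be told apart from a change of its membership.

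Few genes of cluster 12 passed the test for FGF1 against vehicle. Of 2251 genes tested in 4 FGF1 and 6 vehicle mice, 2 passed an adjusted p of 0.05 (0.0888% called; edgeR's quasi-likelihood test on UMIs summed per mouse), and 279 had an unadjusted p under 0.05. Left out in turn, FGF1 mice 6, 10 and 36 moved the number to 18, 0 and 9, FGF1 mouse 7 to 3, and vehicle mice 20, 22, 25 and 35 to 0, 15, 0 and 49. With the batch as a block it was 50 (16 higher and 34 lower), Apod among them. The median depth was 1839 UMIs per cell in the FGF1 cells of the cluster and 1524 in the vehicle cells. Apod rose. It encodes apolipoprotein D, like Ptgds a lipocalin that carries lipids, and lies at chr16:31296192-31314808 on the minus strand of GRCm38. It was at 1342 CPM in FGF1 mouse 6, 1277 in mouse 7, 1709 in mouse 10 and 1332 in mouse 36, and from 588 to 1009 with a median of 825 in the vehicle mice. The arms did not overlap, and the log2 fold change was 0.81 (SE 0.16, adjusted p = 0.0185, edgeR). Among all genes tested, 1.78% lay without overlap above and 1.51% below the vehicle mice. The Apod call was lost without FGF1 mouse 10 (adjusted p = 0.153) or vehicle mouse 20 (0.0565), 25 (0.102) or 29 (0.0687), and with no filter on low counts (0.203).

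The markers of the cluster did not pass. Car2 was at 2792, 2487, 3796 and 2875 CPM in FGF1 mice 6, 7, 10 and 36, and from 1653 to 2775 in the vehicle mice (log2 fold change 0.38, SE 0.16, adjusted p = 0.278, edgeR). The arms overlapped for Car2 through mouse 7 alone. Qdpr had a log2 fold change of -0.16 (SE 0.20, adjusted p = 0.814, edgeR) and Aspa of 0.06 (SE 0.17, adjusted p = 0.952), with overlapping arms in both.

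The myelin genes had positive values without a call. Of the 8 oligodendrocyte markers, 0 passed, 8 had a positive log2 fold change, and the median was 0.47, against 0.02 over all genes tested. Of 20 myelin genes, 0 passed and 17 were positive, with a median of 0.39, and 3 lay without overlap above the vehicle mice. Among all 2251 genes tested, 1201 were positive and 1.78% lay without overlap above. Opalin, a membrane protein of myelinating oligodendrocytes, came nearest. It was at 1558, 1533, 3040 and 1869 CPM in FGF1 mice 6, 7, 10 and 36 and from 887 to 1370 in the vehicle mice, with a log2 fold change of 0.76 (SE 0.17, adjusted p = 0.0538, edgeR). Cldn11, the tight junction protein of myelin, had a value of 0.91 (SE 0.21, adjusted p = 0.0686). Of the genes that set the cluster apart, Bfsp2 had a value of 1.60 (SE 0.39, adjusted p = 0.0744) and Cd9 of 0.68 (SE 0.19, adjusted p = 0.0786). All 4 FGF1 mice were above all 6 vehicle mice for Bfsp2, at 68.6 to 153 CPM against 22.8 to 52.2.

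Other lists had 0 calls in cluster 12 apart from Apod. Of the 7 astrocyte markers, 5 were tested and all 5 had negative values, with a median of -1.18. The 4 tested neuron markers were negative too (median -0.95), as was the 1 tested marker of oligodendrocyte precursors (-1.18). The sum of the 7 astrocyte markers in cluster 12 ran from 511 to 1667 CPM after FGF1 and from 1579 to 2696 after vehicle, and its part in other values of the cluster was not tested. The 11 mitochondrial transcripts all had negative values, with a median of -0.30. Of the 14 tested genes listed for mature oligodendrocytes of types 5 and 6, 9 were positive, with a median of 0.38, and Apod was the one called. Of 10 tested genes of cholesterol synthesis 7 were positive (median 0.28), of 8 heat shock genes 6 (median 0.26), and of 9 genes of the glucocorticoid response 2 (median -0.25). The tanycyte, ependymal, microglia, macrophage, endothelial, pericyte and vascular leptomeningeal lists had 0 genes that passed the low-count filter in cluster 12. Genes that passed this filter had to be counted in enough mice, so the tested members are not the whole lists.

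Whether FGF1 against vehicle differed in cluster 12 from its neighbours was tested as a difference of effects within mice. The clusters were built from these counts, and the division of cells among them moved with the treatment. A difference of effects between clusters thus cannot be told apart from a difference of membership. Against cluster 2, 12 of 4590 genes differed at an adjusted p of 0.05 (0.261% called), 1 with a higher and 11 with a lower effect in cluster 12. The higher one was Cdkn1a, with a difference of 1.47 (SE 0.38, adjusted p = 0.0454, edgeR). In cluster 12, Cdkn1a was at 43.3 to 119 CPM after FGF1 and 18.3 to 81.4 after vehicle, and in cluster 2 at 12.6 to 61.6 and 22.2 to 67.0 CPM. The arms overlapped in both clusters, and the levels rest on 2 to 51 UMIs a mouse in cluster 12 and 3 to 149 in cluster 2. The Cdkn1a call was lost with RLE size factors (adjusted p = 0.0531), with no filter on low counts (0.210), without cells above 20% mitochondrial or ribosomal UMIs (0.0630) and without 8 of the 10 mice in turn (FGF1 mice 7, 10 and 36 and vehicle mice 20, 22, 25, 27 and 35; up to 0.597 without mouse 36). DESeq2 gave it no adjusted p. The lower genes included Rtn1 (-1.66), Agt (-1.35), 2310022B05Rik (-1.32), Ptprz1 (-1.31), Slc4a4 (-1.26), Serpine2 (-1.14), Cpe (-1.05), Slc6a11 (-1.03), Sparcl1 (-0.82) and Mt3 (-0.77). Agt encodes angiotensinogen, Slc6a11 the GABA transporter GAT3, Slc4a4 the bicarbonate transporter NBCe1 and Mt3 metallothionein 3. Of the 7 listed astrocyte markers, 1 passed here, Agt, and all 7 had negative values (median -1.12). Aqp4 and Gfap did not pass the low-count filter in cluster 12 alone, and in cluster 2 they had values of 1.03 and 2.07. Their negative signs here are thus favoured by the filter and are no support. The paper places Slc6a11, Sparcl1 and Cpe in astrocyte modules that rose after FGF1 on Day 5. The sum of the 7 astrocyte markers had a median of 1788 CPM in cluster 12 and 3592 in cluster 2. The part of astrocyte RNA in these differences was not tested. Cpe, carboxypeptidase E, was at 288 to 541 CPM after FGF1 and 393 to 1059 after vehicle in cluster 12, whereas in cluster 2 it was at 1006 to 1819 after FGF1 and 635 to 1355 after vehicle. For Ptgds the difference between clusters 12 and 2 was 0.09 (SE 0.12, adjusted p = 0.953, edgeR) and did not pass. Left out in turn, FGF1 mice 7, 10 and 36 and vehicle mice 20 and 22 moved the number of genes to 4, 1, 43, 5 and 7.

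Against cluster 11, 59 of 4590 genes differed (1.29% called), 27 with a higher and 32 with a lower effect in cluster 12. Here too a difference of effects cannot be told apart from a difference of membership. The median difference over all genes was -0.12 with this normalization and 0.00 with size factors of the RLE kind, under which 39 of 45 called genes were higher, so the split of directions depends on the scaling. The myelin genes lay above that shift, with a median of 0.40 over 20 genes. Of the 8 oligodendrocyte markers, 6 had a higher effect in cluster 12, among them Mag, Mog, Mobp, Cnp and Cldn11, against 0.588% of all genes, with 0.78 for Cldn11 (SE 0.15, adjusted p = 0.0015, edgeR). The number was 1 with no filter on low counts and 3 without FGF1 mouse 7 or 10, and with vehicle mouse 27 left out it was 4. Of the 7 astrocyte markers all had negative values, and 1 passed, Agt (-1.49, adjusted p = 0.0304, edgeR). The number of astrocyte markers that passed was 0 with RLE size factors, 3 with no filter on low counts and 0 to 2 with 1 mouse left out. Agt, Aqp4, Gfap and Gja1 did not pass the low-count filter in cluster 11 alone, so their signs here are no separate support. The part of astrocyte RNA was not tested. Nfasc, which encodes neurofascin of the node of Ranvier, had a difference of 1.31 (SE 0.21, adjusted p = 6.15e-06), and Hmgcs1, an early enzyme of cholesterol synthesis, of 1.21 (SE 0.23, adjusted p = 0.000186). Bfsp2 had the largest positive difference among the called genes, 2.18 (SE 0.57, adjusted p = 0.0251). It did not pass the low-count filter in cluster 11 alone, where its mean level was 54.5 CPM against 67.7 in cluster 12. Qdpr was the one marker of the cluster that differed, by -0.66 (SE 0.16, adjusted p = 0.0115, edgeR). It was at 909 to 1538 CPM after FGF1 and 572 to 1604 after vehicle in cluster 11, and at 1169 to 1995 and 1101 to 2415 in cluster 12, so the arms overlapped in both. The Qdpr call was lost without vehicle mouse 22 (adjusted p = 0.0804), and that of Bfsp2 without FGF1 mouse 7 or 10 or vehicle mouse 22 or 25 (up to 0.231). Of the 11 mitochondrial transcripts, 6 had a lower effect in cluster 12 (mt-Nd4, mt-Co1, mt-Co2, mt-Co3, mt-Atp6 and mt-Cytb), against 0.697% of all genes. This number was 2 with RLE size factors, 10 with no filter on low counts, 4 without FGF1 mouse 10 or vehicle mouse 25 and 1 without vehicle mouse 22. The cluster 11 sums of the vehicle mice held 17 to 56 cells each, and without FGF1 mice 7 and 10 and vehicle mice 22, 25, 27 and 35 in turn the number of genes was 23, 31, 13, 27, 33 and 113.

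Across all oligodendrocytes, where the boundary plays no part, 190 of 8438 genes passed (2.25% called), 95 higher and 95 lower after FGF1. The number was 98, 90, 89 and 496 without FGF1 mice 7, 10, 21 and 28, and 94, 322, 79, 126 and 360 without vehicle mice 20, 22, 25, 29 and 35, and 348 with the batch as a block. Of the genes that lead cluster 12, Cd9 rose from 362 ± 40.8 to 528 ± 62.9 CPM (SD, n = 6 each; log2 fold change 0.54, SE 0.11, adjusted p = 0.0084, edgeR), and Bfsp2 rose by 0.92 (SE 0.18, adjusted p = 0.0066). Il33 rose by 0.97 (SE 0.17, adjusted p = 0.0059). These 3 genes had a higher mean in cluster 12 than in cluster 2, and the share of cluster 12 was lower in 5 of 6 batches. Cd9 (497 against 376 CPM) and Bfsp2 (54.5 against 19.8) were also higher in cluster 11 than in cluster 2, and Il33 was not. Within cluster 2, Cd9 rose by 0.64 (adjusted p = 0.0044, edgeR) and Il33 by 0.83 (adjusted p = 0.0211), while Bfsp2 (0.79, adjusted p = 0.142) did not pass. Within cluster 11, Il33 rose by 1.95 (adjusted p = 0.000114, edgeR), while Cd9 (0.08, adjusted p = 0.886) did not pass. Cluster 11 held 1212 of 3234 oligodendrocytes after FGF1 and 166 of 6728 after vehicle. The part of this division in the values of these 3 genes over all oligodendrocytes was not tested. Of the 20 myelin genes 6 rose, among them Mog (0.57), Cldn11 (0.69), Opalin (0.73), Mal (0.77) and Ugt8a, against 1.13% of all genes in each direction. The number of myelin genes was 3 without FGF1 mouse 7, 10 or 21 or vehicle mouse 20, 25 or 29 and otherwise 4 to 9 with 1 mouse left out. Within cluster 2, 0 of the 20 passed (median 0.04; edgeR, 0.904% of all genes called), and within cluster 11, 0 rose while Mag and Nfasc fell (median -0.15; 6.63% of all genes called). The share of each cluster in the sum differed between the arms. Of the 7 astrocyte markers Agt, Slc1a2 and Aldoc fell, whereas Gfap had a value of 1.67 (adjusted p = 0.150) and Aqp4 of 0.47 (adjusted p = 0.297, edgeR) without passing. The number of astrocyte markers that fell was 0 without FGF1 mouse 21 or vehicle mouse 25 and 1 without FGF1 mouse 7 or 10 or vehicle mouse 20, and with DESeq2 4 fell and 1 rose. In cluster 2 Aqp4 rose by 1.03 (adjusted p = 0.0078, edgeR). The tanycyte list held a called gene in the sum over the clusters too, which rose. The part of RNA of other cells in these sums was not tested. Apod had a value of 0.39 (SE 0.14, adjusted p = 0.114, edgeR) and did not pass.

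Nuclei gave a reading of Ptgds in mice that the whole-cell clustering had not used. The 1375 oligodendrocyte nuclei included 0 above 300 per 10000 UMIs, and the medians per mouse ran from 2.95 to 32.3. The whole-cell cut does not carry over to nuclei, whose totals include intron UMIs. Their median was 7.64, against 104 in whole cells of cluster 2 and 46.0 in cluster 11. Whether nuclei hold a class like cluster 12 cannot be read from this count. Nuclei came from a hypothalamic punch and whole cells from a triangle of the mediobasal hypothalamus. A Ptgds UMI was found in 75.5% of the oligodendrocyte nuclei (median depth 3115 UMIs) and in 42.1% of the astrocyte nuclei (2693.5 UMIs), the latter with a median level of 0. Vascular leptomeningeal nuclei had one in 74.8% of 115 nuclei, with a median of 24.3 and a 95th percentile of 624.7 per 10000, above the 7.64 and 72.5 of the oligodendrocyte nuclei. On Day 5 Ptgds was at 457 and 507 CPM in FGF1 mice 37 and 45 and at 1562 and 1325 in vehicle mice 28 and 38. Ptgds fell by 1.57 on the log2 scale (SE 0.18, adjusted p = 0.000192, edgeR, with 10 of 8407 genes, 0.119%, called, each of them lower). FGF1 mouse 37 shared a batch with vehicle mouse 28 and mouse 45 with mouse 38, and Ptgds was lower in the FGF1 mouse in both. With the batch as a block the value was -1.56 (adjusted p = 1.93e-05), and 22 genes were called. Nnat (-2.03, adjusted p = 0.000192, edgeR) and Cox6a1, a subunit of the respiratory chain (-2.86, adjusted p = 0.0039), also fell, and the 5 tested mitochondrial transcripts all had negative values without a call, with a median of -0.997. Stray RNA and RNA quality as a part of the Ptgds value were not tested. The sum of vehicle mouse 38 rested on 31 nuclei, and without each of the 4 mice in turn the value was -1.67 to -1.39 and passed, where the mouse left alone in its arm is assumed to vary like the pair in the other arm, while the number of genes called was 67 and 23 without FGF1 mice 37 and 45 and 50 and 129 without vehicle mice 28 and 38. On Day 1 Ptgds was at 3607, 1379 and 1049 CPM in the 3 FGF1 mice and at 1403, 3685 and 1498 in the 3 vehicle mice. The arms overlapped, with a log2 fold change of -0.09 (SE 0.53, adjusted p = 0.993, edgeR; 16 of 7192 genes, 0.222%, called, 12 higher and 4 lower). The difference between the days was -1.45 (SE 0.78) with an unadjusted p of 0.0962, and 0 of 8914 genes passed the adjusted threshold for it in edgeR (332 at an unadjusted p under 0.05) or in DESeq2, so a difference between Day 5 and Day 1 was not shown. Aspa fell on Day 1 (-1.83, SE 0.33, adjusted p = 0.0383, edgeR), as did Mog (-1.56, SE 0.27, adjusted p = 0.0358). Among the higher genes were Il33 (2.74, adjusted p = 0.0079, edgeR) and Gjb1, the myelin gap junction protein connexin 32 (3.04, adjusted p = 0.0131). Car2 had a value of 0.84 (adjusted p = 0.665) and Qdpr of 0.37 (adjusted p = 0.963), and 1 of 18 tested myelin genes rose and 1 fell. The calls of Aspa and Mog were lost when any mouse but FGF1 mouse 1 was left out (adjusted p up to 0.199 for Aspa and 0.368 for Mog) and with the batch as a block (0.265 and 0.234), under which 0 genes passed in edgeR (259 at an unadjusted p under 0.05), and the number of genes called on Day 1 was 36, 6 and 1 without FGF1 mice 1, 2 and 3 and 0, 7 and 7 without vehicle mice 1, 2 and 3.

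**Figure D5:**
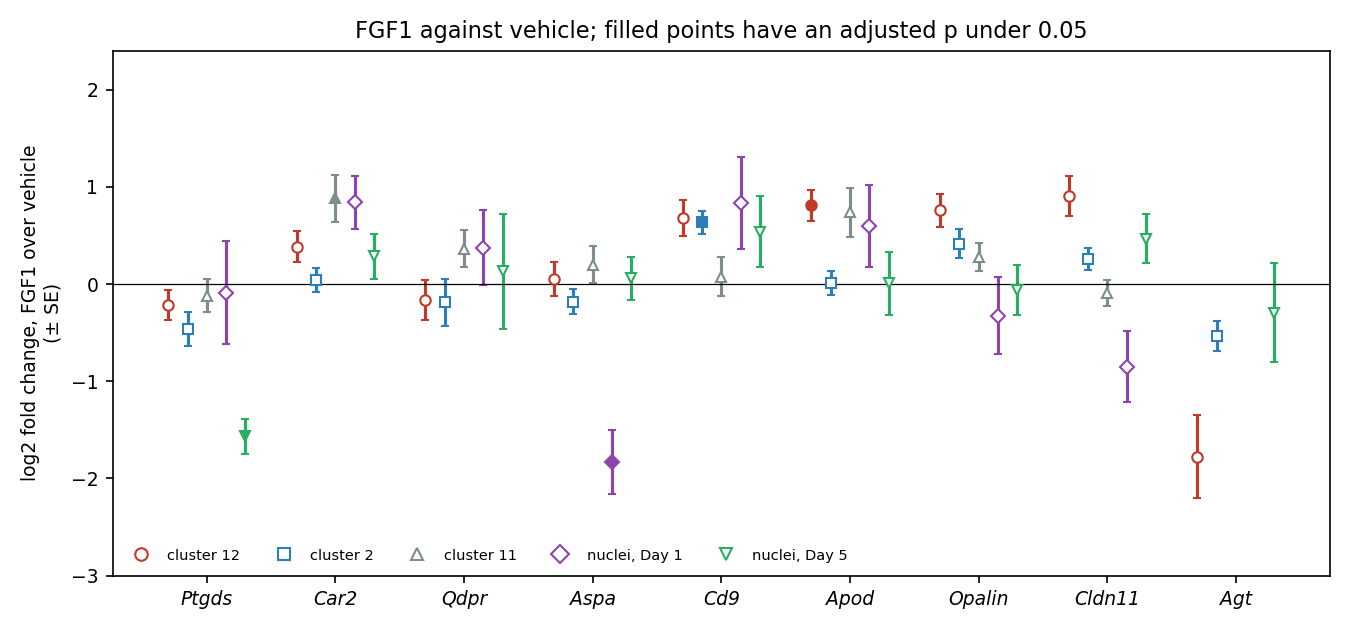
Log2 fold change of FGF1 against vehicle (y axis, with SE) for named genes (x axis) in cluster 12, in cluster 2, in cluster 11, and in oligodendrocyte nuclei of Day 1 and Day 5, where filled points have an adjusted p under 0.05. In cluster 12 Apod (0.81) is filled, and Ptgds is filled in Day 5 nuclei at -1.57.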

How the data were processed

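Per the submitters' processing notes and the methods, the authors counted UMIs with Cell Ranger 1.2 against GRCm38 (for nuclei with introns included), filtered and clustered cells in Seurat and removed doublets from the whole cells. The deposited values used were raw UMI counts per gene and cell, with the deposited cluster, mouse and batch labels. The percent of mitochondrial and ribosomal UMIs in the authors' annotation served one alternative. How far the batch number marks a day or a run is not given in the sources used here. The normalized tables were not used.

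Counts were summed per mouse and cluster for mice with at least 10 cells and tested with edgeR 4.0.16 (filterByExpr, TMM, robust quasi-likelihood test, Benjamini-Hochberg adjustment, threshold 0.05), and with DESeq2 1.42.0 as an alternative. Mouse was a block in the test between clusters. CPM are plain UMIs per 1000000, fold changes use TMM. Levels between clusters are descriptions, with a prior of 1 count and a floor of 50 CPM. The whole-cell sums of cluster 12 held 38326 to 655692 UMIs. Counts gave 100% of simulated log2 changes of 2 and 68.75% of those of 1 in the cluster 12 fit (2251 genes). Positions are from GENCODE M21. Named genes were the cluster's markers, the 12 highest and 8 lowest level ratios, members of listed gene groups and, in each test, up to 12 called genes a direction. Members, lists and tests were chosen with earlier results of these data known. Of the lists not named in the report, that of prostaglandin D and lipocalin genes held 1 called gene in cluster 12, Apod, and the others 0. Some called or listed genes are not reported here, though counts over lists hold them.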

Additional observations from a re-analysis of the deposited data

Results flagged for a closer look

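Of 44 groups of mice tested for a single distant value, 6 had one, and each of these 6 was a gene level in cluster 12. The number of groups is not given for cluster 12 alone. A chance rate of about 1 in 20 need not hold for levels that rest on few UMIs, such as those of Cdkn1a and Mrpl46 below. Gstp1 stood at 818 CPM in FGF1 mouse 7. Cd9 stood at 1889 CPM in FGF1 mouse 10 and, below the others, at 555 in vehicle mouse 25. Cdkn1a was lowest at 43.3 CPM in FGF1 mouse 6, Mrpl46 highest at 104 in vehicle mouse 27, and Apod highest at 1709 in FGF1 mouse 10, a mouse with 19 cells of the cluster.

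Effects of FGF1 that differed between clusters by a test of the difference numbered 12 genes for cluster 12 against cluster 2 and 59 for cluster 12 against cluster 11. They cannot be told apart from differences of membership, since the division among the clusters moved with the treatment. Among the genes named for the cluster, Cdkn1a differed by 1.47 from cluster 2 on the log2 scale. From cluster 11, Qdpr differed by -0.66 and Bfsp2 by 2.18. Bfsp2 did not pass the low-count filter in cluster 11 alone and has few UMIs in a mouse.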

How the results depend on the processing

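The numbers of called genes depended on the processing more than the directions of named genes did. In cluster 12, where 2 genes passed, 14 passed with DESeq2, 6 with RLE size factors, 36 with no low-count filter, 50 with the batch as a block, 0 in mice with at least 20 cells (edgeR, 245 at an unadjusted p under 0.05; DESeq2 was not run on these mice) and 16 in all 12 mice down to 3 cells. With no low-count filter 229 genes differed from cluster 11, 66 were called in Day 1 nuclei, 69 in Day 5 nuclei and 15 between the days, and with the batch as a block 348 were called in all oligodendrocytes, 0 in Day 1 nuclei (259 at an unadjusted p under 0.05; DESeq2 was not run with the block) and 22 in Day 5 nuclei. Leaving out 1 mouse gave 0 to 49 genes in cluster 12, 1 to 43 against cluster 2, 13 to 113 against cluster 11, 79 to 496 in all oligodendrocytes, 0 to 36 in Day 1 nuclei and 23 to 129 in Day 5 nuclei. Directions turned for values near 0: Aspa in cluster 12 was -0.066 with no filter, -0.079 in mice with at least 20 cells and -0.0064 in all 12 mice, and the differences from cluster 2 were -0.010 for Ptgds and -0.0050 for Qdpr with no filter. Without 1 mouse, log2 values ranged over -0.079 to 0.15 for Aspa in cluster 12, over -0.18 to 0.035 for Qdpr and -0.064 to 0.062 for Aspa in all oligodendrocytes, over -0.025 to 0.12 for Ptgds and -0.019 to 0.18 for Qdpr against cluster 2, over -0.83 to 0.47 for Ptgds in Day 1 nuclei, and over -0.80 to 1.04 for Qdpr and -0.041 to 0.33 for Aspa in Day 5 nuclei. The share of cluster 12 (FGF1 minus vehicle, -7.07 points) was -2.08 points of all cells, -1.58, -20.1 and -12.4 within batches 1, 4 and 5, and 6.93 within batch 6, and without 1 mouse it was -8.60 to -5.47. The cause of these changes was not tested. Ptgds in all oligodendrocytes stayed negative under each alternative and was -0.52 without the cells of cluster 12. When cells were thinned to 700 UMIs, 7 of the 12 highest and 4 of the 8 lowest genes kept their place, and Ptgds stayed at 2.11. The prior of 1 count weighs more in the thinned sums of cluster 12, so for genes with few UMIs this is no check of depth.

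Replicate numbers were shared between arms in Day 1 nuclei alone. Same-numbered mice correlated at -0.15, -0.27 and 0.20 in their deviations, so the numbers were not taken as pairs, and with the replicate block 5 genes were called in place of 16. In the other comparisons the arms share no replicate numbers, and the batch block is their paired fit. The fits on all 12 mice, without cluster 12, with Ptgds left out of totals, between the days and with the batch block in nuclei were chosen after seeing the data. Small sums limit cluster 12: 6 of its 10 libraries are of vehicle mice, and genes under about 50 CPM have few UMIs in a mouse.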

Other observations

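In each nuclei mouse, the 25% of oligodendrocyte nuclei with the most Ptgds were set beside the rest, as a description over 10 mice and both days. Over 4372 genes above the level floor the median log2 ratio was -0.06. Cd9 had a mean log2 ratio of 1.12 ± 0.99 (SD, higher in 9 of 10 mice; 153 against 68.0 CPM), close in size to its 1.13 in cluster 12 of whole cells. Car2 had 0.65 ± 0.71 and Aspa 0.60 ± 0.55, each higher in 9 of 10 mice. Mog had 0.57 ± 0.60 and was higher in 10 of 10 mice. Slc1a3 had -0.58 ± 0.52 and was higher in 2 of 10 mice. Other genes of the cluster did not follow. Qdpr had 0.16 ± 1.05, Gstp1 0.10 and Bfsp2 -0.28, against 0.51, 1.29 and 1.44 in whole cells, and all lay below the level floor in nuclei. Above that floor, S100a6 had -0.10 and 6330403K07Rik 0.02, against -1.11 for each in whole cells. These nuclei were chosen by their Ptgds level, and their depth was not matched.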
